A study of Mus musculus with 9 samples.

Results

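The genes described here are the tripartite motif genes of the Trim12 and Trim30 cluster on mouse chromosome 7, with Trim34a inside the cluster and Trim21 and Trim68 on the same chromosome. They were taken by gene symbol, and they had been selected on their values in the 129 and B6 libraries. Of 9 symbols asked for, 8 had a row among the 24013 gene symbols of the series, and 7 passed the filter on low values that left 11542 genes to test. Trim30b was too low to be tested. Trim30c had no row under its symbol or a synonym and is not analysed here.

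The samples were adipocytes differentiated in the dish from stromal vascular cells of mouse inguinal fat, and the series calls them beige, the kind of fat cell that can be induced to burn fuel as heat. There were 3 libraries from F1 offspring, 3 from 129X1/SvJ mice (129) and 3 from C57BL/6J mice (B6), all taken at day 7 of differentiation. The series describes B6 as prone to obesity and 129 as resistant to it. All 3 groups had the same treatment: an induction of 48 hours with 1 µM dexamethasone, 0.5 mM isobutylmethylxanthine and 125 nM indomethacin, on top of 1 µM rosiglitazone, 1 nM T3, 850 nM insulin and 10% serum, which were kept at those doses afterwards. The labels give neither the age of the mice nor the mother strain of the F1. Nor do they say if the 3 libraries of a strain are separate mice or separate dishes, and the spread behind each p-value may be technical.

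TRIM proteins are mostly ubiquitin ligases: a RING domain at the amino end transfers ubiquitin, and a B-box and a coiled coil follow it. In many family members a PRY-SPRY domain at the carboxyl end binds the target. Mouse Trim12 and Trim30 genes are the rodent relatives of primate TRIM5, which blocks incoming retroviral capsids, and many genes of the family are switched on by interferon.

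In the mm9 coordinates of the deposited values, 6 of the 8 genes lay in a stretch of 263.4 kb, chr7:111392971-111656363. Trim34a stood first, on the plus strand, and Trim12a, Trim12c, Trim30b, Trim30a and Trim30d followed on the minus strand. Trim21 and Trim68 lay outside it: the gap from Trim68 to the cluster was 1557.1 kb and the gap from Trim21 to Trim68 was 112.1 kb. The label of a cluster therefore holds for 6 of the genes, and Trim21 and Trim68 are relatives at a distance.

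The promoter windows of 4 genes are printed because these cluster genes had the highest B6 levels, and they form a pair of close copies on the Trim12 side and a pair on the Trim30 side. Each runs from 250 bases before to 50 bases after an annotated transcript start in RefSeq, build GRCm38.p6, which is the B6 reference and not the build of the expression values. They are read 5′ to 3′ on the minus strand of chromosome 7, at chr7:104315446-104315745 for Trim12a, chr7:104353300-104353599 for Trim12c, chr7:104465144-104465443 for Trim30a and chr7:104507800-104508099 for Trim30d. Capitals mark matches to the core of the interferon-stimulated response element, the DNA element through which type I interferon switches on its target genes.
Trim12a: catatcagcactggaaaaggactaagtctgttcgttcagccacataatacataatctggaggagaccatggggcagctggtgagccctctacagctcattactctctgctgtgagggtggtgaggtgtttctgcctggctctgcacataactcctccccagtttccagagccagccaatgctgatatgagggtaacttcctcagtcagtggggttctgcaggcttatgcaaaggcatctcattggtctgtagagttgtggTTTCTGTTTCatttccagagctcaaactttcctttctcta
Trim12c: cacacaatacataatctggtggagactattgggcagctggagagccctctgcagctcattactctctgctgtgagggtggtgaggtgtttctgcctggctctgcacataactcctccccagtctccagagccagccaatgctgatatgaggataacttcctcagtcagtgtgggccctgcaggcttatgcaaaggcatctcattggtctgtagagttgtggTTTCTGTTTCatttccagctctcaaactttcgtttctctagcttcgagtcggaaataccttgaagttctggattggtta
Trim30a: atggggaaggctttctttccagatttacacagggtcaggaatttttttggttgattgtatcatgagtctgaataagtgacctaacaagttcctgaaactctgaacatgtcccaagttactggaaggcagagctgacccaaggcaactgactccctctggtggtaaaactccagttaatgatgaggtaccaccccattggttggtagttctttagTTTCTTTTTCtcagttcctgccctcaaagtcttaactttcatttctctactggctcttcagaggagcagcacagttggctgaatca
Trim30d: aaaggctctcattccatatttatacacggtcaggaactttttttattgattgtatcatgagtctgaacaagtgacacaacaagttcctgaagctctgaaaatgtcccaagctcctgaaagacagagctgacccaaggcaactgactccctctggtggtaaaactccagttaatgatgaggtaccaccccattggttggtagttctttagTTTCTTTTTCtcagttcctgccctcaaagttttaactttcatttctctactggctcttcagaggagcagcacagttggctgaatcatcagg

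The core was searched as GAAA, any 2 bases and GAAA, on both strands, and it was present in 1131 of 32851 RefSeq promoter windows of the same length, or 3.44%. It was found in the windows of Trim12a, Trim12c, Trim30a, Trim30d, Trim34a and Trim21, and in none of the letters of the Trim30b, Trim30c and Trim68 windows. Trim12a and Trim12c had the same letters, TTTCTGTTTC, and Trim30a and Trim30d had TTTCTTTTTC. Trim34a had TTTCAGTTTC at chr7:104244207-104244506 on the plus strand. Trim21 had a pair of overlapping matches, GAAACTGAAA and GAAAGTGAAA, at chr7:102565433-102565732 on the minus strand. The best local alignment of the Trim12a and Trim12c windows was 94.6% identical over 261 columns, that of Trim30a and Trim30d 93.9% over 294 columns, and that of Trim12a and Trim30a 68.6% over 70 columns. A match is a description of letters in the reference and says nothing of binding in these cells.

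The copies are also alike in their transcripts, which bears on how reads are assigned. Of all words of 50 bases in the annotated transcripts, 10.5% of those in Trim12a, 33.7% in Trim12c, 5.98% in Trim30a, 7.49% in Trim30d and 59.7% in Trim34a also occurred in another gene. For Trim12c the main partner was Trim5, with 24.2% of its words, and Trim5 has no row in the values. For Trim34a it was Trim34b, with 39.8%. Trim21 shared 0.216% of its words and Trim68 shared 0.0%. How reads with several matches were counted is not given in the sources used here, so levels of Trim34a and Trim12c are uncertain by the reads that could belong to either copy.

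The libraries held 39686986 to 53410947 assigned reads in F1, 23710908 to 28473083 in 129 and 19130022 to 26931438 in B6. Adipocyte markers (Fabp4, Cidec, Adipoq, Plin1 and 4 others) summed to 33700 to 36200 RPKM in F1, 29800 to 32100 in 129 and 25500 to 29400 in B6, where RPKM is reads per kilobase of exon, scaled to the assigned reads of the library. Most of each sum was Fabp4, with means of 31300 RPKM in F1, 26900 in 129 and 23500 in B6. The order of the groups was another for Cidec (1670, 2260 and 1850), Adipoq (1350, 1290 and 1510) and Plin1 (476, 451 and 477). Macrophage markers summed to 36.6 to 54.1 RPKM in F1, 19.8 to 45.1 in 129 and 42.1 to 53.4 in B6. Lymphocyte markers summed to at most 0.275 RPKM in F1, 0.41 in 129 and 0.277 in B6, and Cd3g was at 0 in all 9 libraries. B6 replicate 1 stood apart in genes that interferon induces: the mean log2(RPKM + 1) of 30 such genes was 2.96, 2.56 and 2.32 in F1 and 2.68, 2.66 and 2.66 in 129. In B6 it was 4.13 in replicate 1, 2.75 in replicate 2 and 2.95 in replicate 3. Values without B6 replicate 1 are therefore given beside the results that it moves. Because RNA came from whole cultures, fewer expressing cells and less RNA per cell cannot be told apart.

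**Figure D1:**
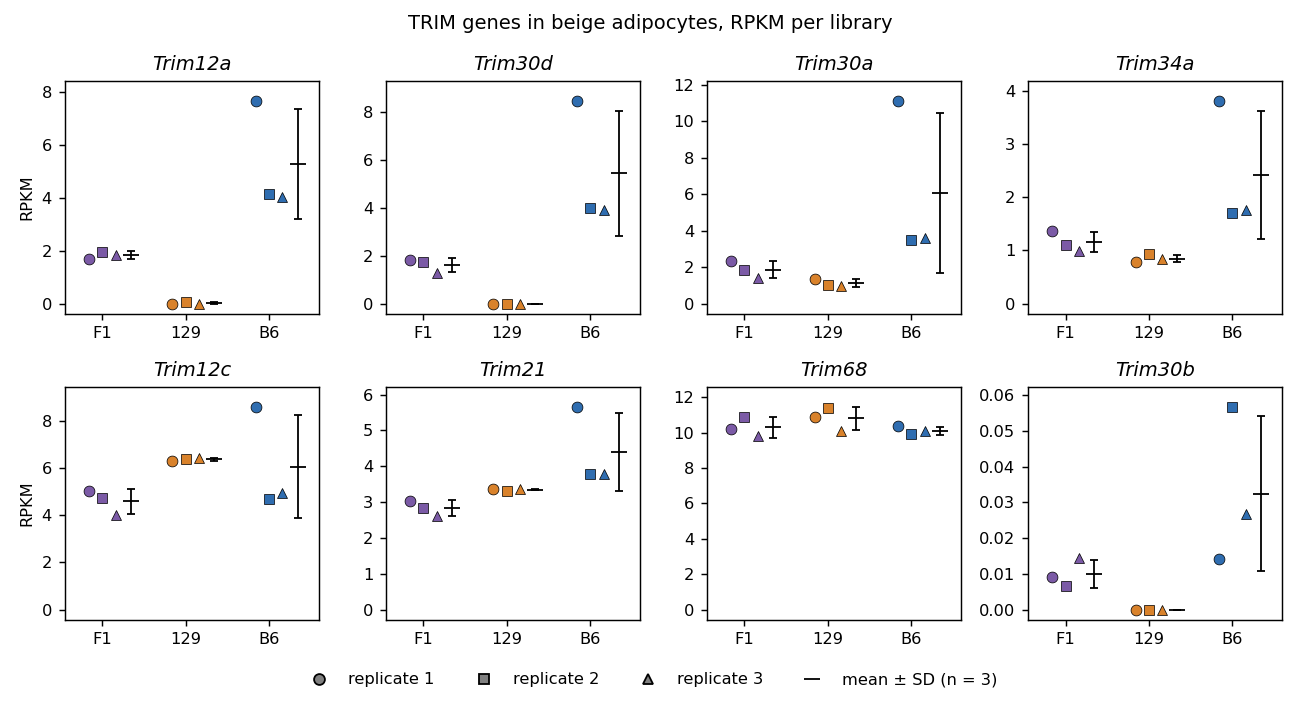
RPKM of the 8 genes in each library, with F1, 129 and B6 from left to right in each panel; symbols are replicates and the black bar is the mean ± SD of 3 libraries. Trim12a and Trim30d are at or near 0 in all 129 libraries and intermediate in F1, B6 replicate 1 is the highest B6 library in every panel but that of Trim30b, and the groups of Trim68 overlap. Vertical scales differ between panels.

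Trim12a and Trim30d were read in F1 and B6 and were nearly or wholly without reads in 129. Trim12a had 1.69, 1.96 and 1.85 RPKM in F1, 0, 0.0461 and 0 RPKM in 129, and 7.64, 4.15 and 4.02 RPKM in B6. The 129 values rest on 0, 2 and 0 reads, against 102, 160 and 142 reads in F1 and 299, 121 and 165 in B6. The 3 groups did not overlap, and F1 lay between the parents in every library. The depth-corrected ratio of F1 to 129 reads was 107, with a counting interval of 29.5 to 887 at 95%, and that of B6 to 129 reads was 310 (85.4 to 2560). Intervals of this kind cover counting error only. The B6 to 129 ratio is a description, because that contrast put the gene forward. Trim12a (chr7:111448411-111464009 in mm9, minus strand, 8 exons) is a TRIM5 relative whose own function is less studied than that of Trim30a.

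Trim30d is also called Trim79, and its protein has been reported to restrict tick-borne flaviviruses by acting on their polymerase. It lies at chr7:111618529-111656363 on the minus strand and has 8 exons. It had 1.83, 1.74 and 1.29 RPKM in F1, 0 RPKM in all 3 of the 129 libraries, and 8.44, 3.97 and 3.89 RPKM in B6. Behind these values stood 273, 350 and 243 reads in F1, 0 reads in 129 and 814, 285 and 394 reads in B6. Against the floor of 3 reads over the 129 group, which is 0.0105 RPKM, Trim30d was at least 153-fold higher in F1 and at least 527-fold higher in B6. No 129 library held a read, so the level in 129 was not detectable at a depth of 75980140 reads over the group. The expression values were made on mm9, which is a B6 sequence. Whether reads of a diverged or missing 129 copy, in 129 or in the F1, would be assigned to this gene was not tested. That holds for Trim12a, Trim30a and the other genes described here as well.

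Trim30a was low in 129 without being absent. Its protein dampens Toll-like receptor signalling by removing TAB2 and TAB3, the adaptors that join the kinase TAK1 to ubiquitin chains. Trim30a (chr7:111557540-111613707, minus strand, 8 exons) had 2.35, 1.82 and 1.4 RPKM in F1, 1.37, 0.997 and 0.973 RPKM in 129, and 11.1, 3.47 and 3.58 RPKM in B6. B6 lay above both other groups, and F1 above 129, where the lowest F1 library and the highest 129 library were close. The mean in 129 was 0.184 of that in B6, and 0.316 without B6 replicate 1. On the log2(RPKM + 1) scale, which understates changes of low genes, the 129 minus B6 difference was -1.58 (SE 0.31), and -1.10 without that library.

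Trim34a, the mouse counterpart of a human interferon-responsive TRIM, had 1.37, 1.11 and 0.995 RPKM in F1, 0.782, 0.926 and 0.834 RPKM in 129 and 3.81, 1.7 and 1.76 RPKM in B6. The 3 groups did not overlap, with 129 lowest and B6 highest. Trim34a lies at chr7:111392971-111410750 on the plus strand and has 8 exons. The 129 mean was 0.35 of the B6 mean, or 0.49 without B6 replicate 1. Trim34b, the copy between Trim12a and Trim12c that shares many of its words, stood the other way round. It had 0.492, 0.281 and 0.415 RPKM in F1, 0.876, 0.778 and 0.934 RPKM in 129 and 0.0762, 0.0681 and 0.0242 RPKM in B6, from 85 reads over the F1 group, 100 over 129 and 6 over B6. Summed over both copies, the level was 1.55 ± 0.265 RPKM in F1, 1.71 ± 0.0552 RPKM in 129 and 2.48 ± 1.22 RPKM in B6 (SD, n = 3 each), with B6 libraries at 3.88, 1.77 and 1.78 RPKM. Outside B6 replicate 1, the sum ran from 1.39 to 1.86 RPKM over the 3 groups pooled. The exons span 2580 bases for Trim34a and 1535 for Trim34b, so a read moved from one copy to the other changes the sum. How much of the opposite pattern of the copies comes from reads assigned to one or the other was not tested.

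Trim12c differed from its neighbours in being well expressed in 129. It acts with TRAF6 to promote type I interferon and NF-κB responses. Trim12c (chr7:111487268-111501872, minus strand, 8 exons) had 5.04, 4.73 and 4.01 RPKM in F1, 6.29, 6.39 and 6.43 RPKM in 129 and 8.57, 4.67 and 4.95 RPKM in B6. The 129 libraries lay above all F1 libraries and between the B6 libraries, of which replicate 1 was the highest. The 129 minus B6 difference was 0.10 on the log2 scale (SE 0.16), and 0.34 without B6 replicate 1. Per length, Trim12a thus had 0.0154 ± 0.0266 RPKM in 129 and 5.27 ± 2.06 RPKM in B6, and Trim12c had 6.37 ± 0.0756 RPKM in 129 and 6.06 ± 2.17 RPKM in B6 (SD, n = 3 each).

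Trim30b was close to the detection limit throughout. Its annotated row at chr7:111503912-111507160 has 2 exons, against 8 for the other cluster genes. It had 1, 1 and 2 reads in F1, 0 in each 129 library and 1, 3 and 2 in B6. The highest value, in B6 replicate 2, was 0.0566 RPKM. Every B6 library had a read and no 129 library did, but the 6 reads over B6 are too few to describe a difference, and none was tested.

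Trim21 and Trim68 varied less. Trim21 is the cytosolic Fc receptor that marks antibody-coated virus particles for destruction, and it is the Ro52 autoantigen of Sjögren's syndrome. Trim21 (chr7:109706434-109713996, minus strand) had 3.04, 2.83 and 2.6 RPKM in F1, 3.37, 3.32 and 3.36 RPKM in 129 and 5.64, 3.78 and 3.77 RPKM in B6. The 3 groups did not overlap, with F1 lowest and B6 highest. Trim68, the SS-56 autoantigen, had 10.2, 10.9 and 9.80 RPKM in F1, 10.9, 11.4 and 10.1 RPKM in 129 and 10.4, 9.93 and 10.1 RPKM in B6. It was the highest of the 8 genes per length, and its groups overlapped. Trim68 lies at chr7:109826094-109835840 on the minus strand.

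**Figure D2:**
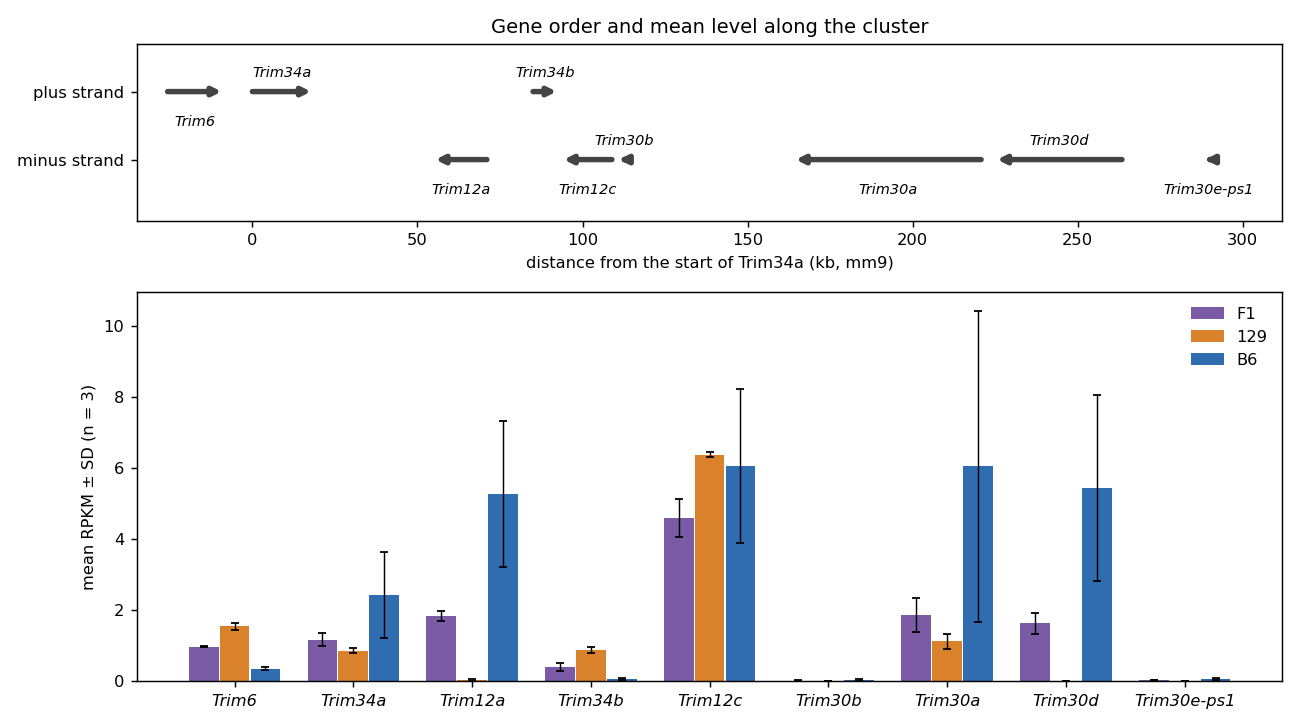
Top, genes of the cluster drawn to scale as arrows in their direction of transcription, in kb from the start of Trim34a; bottom, mean RPKM ± SD of 3 libraries for the same genes in F1, 129 and B6. In 129, Trim12c averages 6.37 RPKM, Trim12a and Trim30d are at or near 0, and Trim6 and Trim34b are higher in 129 than in B6.

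In order of F1 level per length, Trim68 stood at 10.3 ± 0.58 RPKM, followed by Trim12c at 4.59 ± 0.527, Trim21 at 2.83 ± 0.22, Trim30a at 1.86 ± 0.472, Trim12a at 1.83 ± 0.14, Trim30d at 1.62 ± 0.292 and Trim34a at 1.16 ± 0.19 (SD, n = 3). From Trim30a to Trim30d, neighbours in that order differed by less than the spread between libraries. In 129 the order was Trim68 at 10.8 ± 0.624 RPKM, Trim12c at 6.37 ± 0.0756, Trim21 at 3.35 ± 0.0257, Trim30a at 1.11 ± 0.223, Trim34a at 0.847 ± 0.0728, Trim12a and Trim30d. There Trim68, Trim12c and Trim21 were apart from each other by more than their spread. In B6 it was Trim68 at 10.1 ± 0.213 RPKM, Trim12c, Trim30a at 6.05 ± 4.38, Trim30d at 5.43 ± 2.61, Trim12a, Trim21 at 4.40 ± 1.08 and Trim34a at 2.42 ± 1.20. From Trim12c to Trim21, neighbours in the B6 order differed by less than the spread.

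The F1 carries 1 chromosome set from each strain, and the design allows the F1 to be set against each parent. The F1 libraries were not part of the contrast that put the genes forward, but each comparison reuses the parental libraries that did, so the F1 against B6 and the F1 against 129 share their F1 libraries and are not independent of the choice of genes. Differences were tested by limma on log2(RPKM + 1) with adjustment over all 11542 genes. An exact permutation test of 3 against 3 libraries cannot give a p below 0.1.

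Against B6, the F1 had lower levels of 5 of the 7 tested genes, and none was higher (0 by limma also at an unadjusted p of 0.05, and 0 by voom). Over all genes tested, 20.2% were called lower and 11.0% higher in this comparison, with a median difference of -0.041, or 13.8% and 16.5% when libraries were scaled by the median of ratios. Trim30d differed by -1.23 on the log2(RPKM + 1) scale (SE 0.21, limma adjusted p 0.0015), and the F1 mean was 0.298 of the B6 mean. Trim30a differed by -1.15 (SE 0.31, adjusted p 0.0187) and Trim12a by -1.10 (SE 0.17, adjusted p 0.000814). Trim34a differed by -0.61 (SE 0.18, adjusted p 0.0278) and Trim21 by -0.48 (SE 0.11, adjusted p 0.00841). Every F1 library lay below every B6 library for each of these 5 genes. The same held for TRIM genes elsewhere, such as Trim11 and Trim2, and the share over all tested genes was not counted. Trim12c differed by -0.30 (SE 0.16, adjusted p 0.189) and Trim68 by 0.02 (SE 0.05, adjusted p 0.801), and neither passed the test.

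The size of these differences depended on B6 replicate 1. Without it, the 5 calls against B6 were kept with smaller differences, of -0.92 for Trim30d (adjusted p 0.000162), -0.84 for Trim12a (adjusted p 6.74e-05), -0.67 for Trim30a (adjusted p 0.00539), -0.34 for Trim34a (adjusted p 0.0196) and -0.32 for Trim21 (adjusted p 0.00562), from limma in each case. The F1 mean was then 0.412 of the B6 mean for Trim30d, 0.449 for Trim12a, 0.528 for Trim30a, 0.67 for Trim34a and 0.749 for Trim21. Trim12c was at 0.955 of the B6 mean and Trim68 at 1.03. Over all tested genes, 2597 were called in either direction without that library, against 3599 with it. The call of Trim30a was lost without F1 replicate 3 (-1.03, adjusted p 0.0665), and that of Trim34a without F1 replicate 2 (-0.60, adjusted p 0.0717) or F1 replicate 3 (-0.56, adjusted p 0.0861).

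Against 129, the F1 was higher in Trim12a and Trim30d, 2 of the 7 tested genes, and lower in none by limma. A single lower call, of Trim12c, appeared at an unadjusted p of 0.05 and with voom. Over all genes tested, 12.0% were called higher and 15.7% lower, or 13.9% and 14.0% with the median of ratios. Trim12a was higher in the F1 by 1.48 (SE 0.17, limma adjusted p 0.000143) and Trim30d by 1.38 (SE 0.21, adjusted p 0.000843) on the log2(RPKM + 1) scale. For Trim12c the F1 lay below 129 in every library, at -0.40 (SE 0.16, adjusted p 0.0922), and the difference passed the test without B6 replicate 1 (adjusted p 0.00225). Trim30a differed by 0.43 (SE 0.31, adjusted p 0.356), Trim34a by 0.22 (SE 0.18, adjusted p 0.417), Trim21 by -0.19 (SE 0.11, adjusted p 0.251) and Trim68 by -0.06 (adjusted p 0.426). Without B6 replicate 1, Trim30a (adjusted p 0.024) and Trim21 (adjusted p 0.0352) also passed at the same differences. The fit has a single spread per gene over all 9 libraries, so B6 replicate 1 enters these errors although no B6 library is compared. A failed test here does not show that F1 and 129 were alike.

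**Figure D3:**
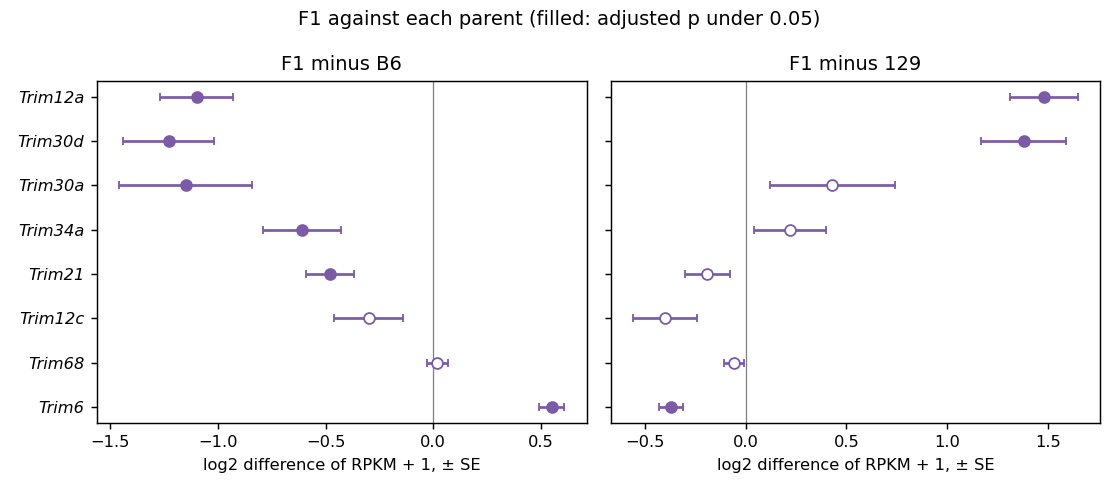
Log2 difference of RPKM + 1 between F1 and B6 (left) and between F1 and 129 (right) for the 7 tested genes and the neighbour Trim6, with the standard error from limma; filled points have an adjusted p under 0.05. Trim12a and Trim30d lie left of 0 against B6 and right of 0 against 129, and Trim6 does the reverse.

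The F1 was also set against a mid-parent level, the point midway between the parents. Averaging the parents on the log2 scale gave 0.19 for Trim12a (SE 0.15, limma adjusted p 0.379) and 0.08 for Trim30d (SE 0.18, adjusted p 0.795), and neither passed. Both depended on the scale: with a pseudocount of 0.1 Trim12a passed at 1.34 (adjusted p 0.00168) and Trim30d at 1.24 (adjusted p 0.00419), and with voom at 2.46 (adjusted p 0.00195) and 3.27 (adjusted p 0.00552). Without B6 replicate 1, Trim12a passed at 0.32 (adjusted p 0.00585). Another mid-parent undid the log of each parent's mean log2(RPKM + 1), averaged the parents and took the log2 again. It lies above the mean of the logs and gave the opposite sign, at -0.32 for Trim12a and -0.45 for Trim30d. In RPKM, the F1 stood at 0.693 of the parental mean for Trim12a and 0.596 for Trim30d, and without B6 replicate 1 at 0.895 for Trim12a and 0.825 for Trim30d. The direction of the departure from the mid-parent is therefore not settled for either gene. Trim21 was the only one of the 7 to pass, with a difference of -0.33 (SE 0.10, adjusted p 0.0311), where 14.8% of all genes were called lower and 8.35% higher, or 10.8% and 12.3% with the median of ratios. That call was lost when any F1 or any 129 library was left out (adjusted p 0.0535 to 0.119) and with no filter (adjusted p 0.142). Trim30a was at -0.36 (adjusted p 0.37), Trim12c at -0.35 (adjusted p 0.098), Trim34a at -0.20 (adjusted p 0.404) and Trim68 at -0.02 (adjusted p 0.776). Trim12c passed without B6 replicate 1 (-0.23, adjusted p 0.0284) or B6 replicate 2 (-0.42, adjusted p 0.039) and with voom (-0.43, adjusted p 0.0325).

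In the contrast that put the genes forward, 129 minus B6, 21.7% of all tested genes were called lower and 15.9% higher, or 17.3% and 19.6% with the median of ratios. The differences are given as a description. They were -2.61 for Trim30d, -2.58 for Trim12a, -1.58 for Trim30a, -0.84 for Trim34a, -0.29 for Trim21, 0.08 for Trim68 and 0.10 for Trim12c on the log2(RPKM + 1) scale. Without B6 replicate 1 they were -2.30 for Trim30d, -2.32 for Trim12a, -1.10 for Trim30a, -0.56 for Trim34a, -0.13 for Trim21, 0.10 for Trim68 and 0.34 for Trim12c. The median over all tested genes was -0.027.

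B6 replicate 1 stood high in most of these genes and in genes that interferon induces, which rests on that library alone. From B6 replicate 2 to replicate 3, the interferon-stimulated list went from 2.75 to 2.95 in mean log2(RPKM + 1). Trim12c, Trim30a, Trim34a and Trim68 rose slightly between those libraries, and Trim12a, Trim30d and Trim21 fell slightly. B6 replicate 1 over the mean of replicates 2 and 3 was 3.15 for Trim30a, 2.2 for Trim34a, 2.15 for Trim30d, 1.87 for Trim12a, 1.78 for Trim12c, 1.49 for Trim21 and 1.03 for Trim68. A ratio of 1.4 or more, a limit chosen after the values were seen, was reached by 6 of the 7 genes, by 27 of the 30 tested interferon-stimulated genes and by 195 of 11536 tested genes with a ratio (1.69%). The median ratio was 2.72 over the interferon-stimulated list and 1.01 over all tested genes. The 6 genes that reached it had the core of the response element in a promoter window, and Trim68, which did not reach it, had no match. Only 1 gene lay below the limit, and the windows include close copies of each other. Matches among all genes that reached the limit were not counted, so nothing is read from this split. The 3 F1 libraries differed less, and their order in the list mean was also their order in 5 of the 7 genes: Trim12c, Trim30a, Trim30d, Trim34a and Trim21. How many of all tested genes had that order was not counted, so nothing is read from this count.

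**Figure D4:**
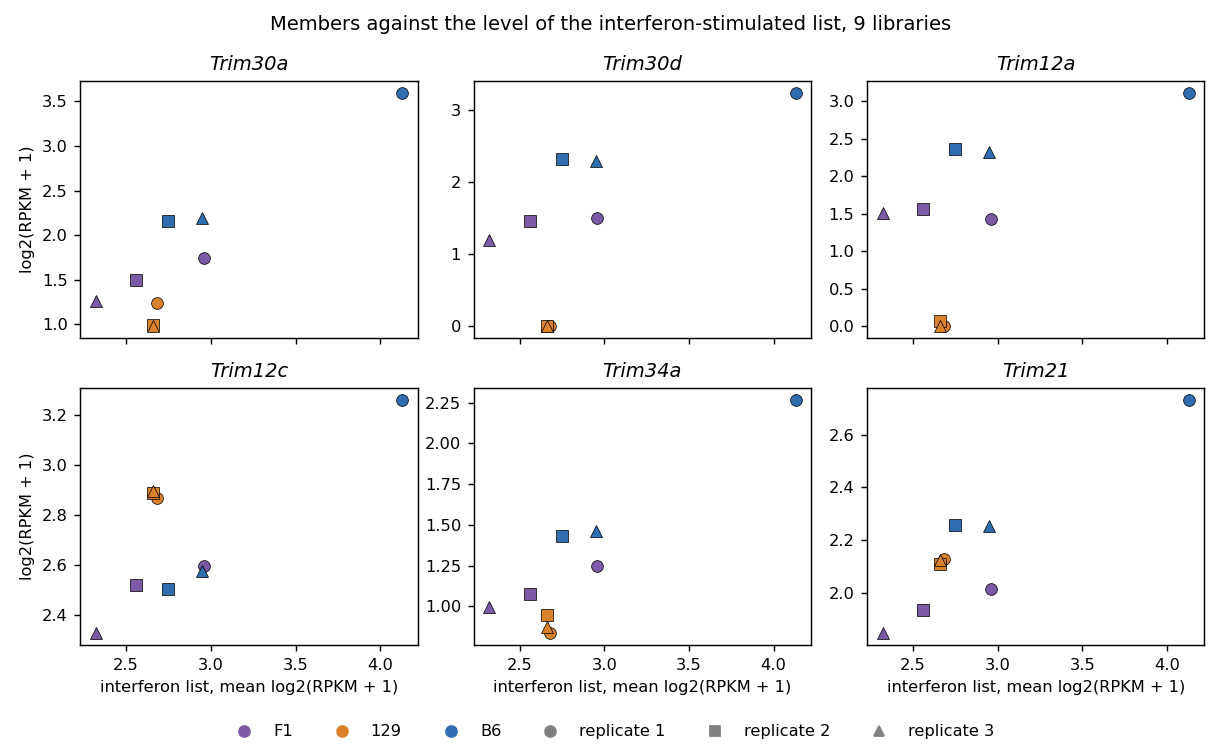
Log2(RPKM + 1) of 6 genes (vertical) against the mean log2(RPKM + 1) of 30 interferon-stimulated genes in the same library (horizontal), with colours for F1, 129 and B6 and symbols for replicates. B6 replicate 1 lies at the upper right in every panel, at 4.13 on the horizontal axis, and the 129 libraries lie together near 2.66.

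Isg15, the ubiquitin-like protein attached to targets after interferon, had 17.1, 8.54 and 4.48 RPKM in F1, 7.67, 8.13 and 8.70 RPKM in 129 and 63.4, 11.4 and 15.7 RPKM in B6. The spread within B6 exceeded the difference between groups (F1 minus B6 -1.27, SE 0.55, limma adjusted p 0.105). Lgals3bp, a secreted glycoprotein, was lower in the F1 at 296 ± 34.4 RPKM, against 419 ± 86.7 RPKM in B6 (SD, n = 3). The difference was -0.49 (SE 0.13, limma adjusted p 0.0147). That call was lost without F1 replicate 2 (adjusted p 0.0507) or F1 replicate 3 (0.0563) and with no filter (0.0914). Bst2, which tethers budding virus, had 25 ± 10.6 RPKM in F1 and 47.6 ± 35.6 RPKM in B6, and Ifi35 had 16.6 ± 2.66 and 22 ± 5.07 RPKM. Neither of these passed the test. Of the 30 tested genes of the list, 1 rose and 5 fell in the F1 against B6, with a median of -0.60, and 2 rose and 4 fell without B6 replicate 1, with a median of -0.22. Over all tested genes, 11.0% rose and 20.2% fell in that comparison. Against 129, none of the 30 passed in the F1 by limma, where 1 was higher and 2 were lower at an unadjusted p of 0.05 and likewise with voom, and 3 were lower without B6 replicate 1. The spread of B6 replicate 1 enters that test too. Over all tested genes, 12.0% were called higher and 15.7% lower against 129. In 129 against B6, 2 of the 30 rose and 6 fell, with a median of -0.56, and 2 rose and 5 fell without B6 replicate 1, with a median of -0.19. The shares over all tested genes were 15.9% higher and 21.7% lower. All shares in this paragraph come from the fit with all 9 libraries. Without B6 replicate 1, fewer genes were called over all tested genes: 2597 against 3599 for F1 minus B6. The numbers were 2991 against 3200 for F1 minus 129 and 3532 against 4333 for 129 minus B6. They were not split by direction here. The part of interferon-stimulated expression in the strain differences of the TRIM genes was not tested.

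**Figure D5:**
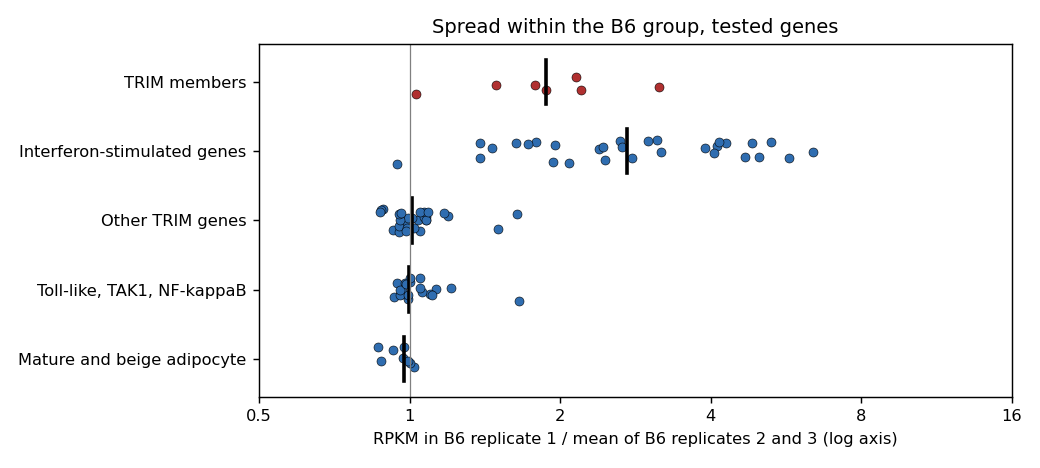
RPKM in B6 replicate 1 divided by the mean of B6 replicates 2 and 3 on a log axis, 1 point per tested gene, with black bars at the medians; rows are the TRIM members, interferon-stimulated genes, other TRIM genes, Toll-like receptor to NF-κB signalling and adipocyte markers. Members run from 1.03 to 3.15, the interferon list has a median of 2.72, and the medians of the other 3 sets are 1.01, 0.998 and 0.972.

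The signalling genes around these TRIM proteins were called in both directions. Of 15 tested interferon receptor and signalling genes, 3 rose and 2 fell in the F1 against B6, or 2 and 0 without B6 replicate 1. With all 9 libraries, 11.0% of all tested genes rose and 20.2% fell in that comparison. Ifngr1, a chain of the interferon gamma receptor, had 107 ± 7.01 RPKM in F1, 89.7 ± 1.33 RPKM in 129 and 88.6 ± 4 RPKM in B6, and it was higher in the F1 than in B6 (0.27, limma adjusted p 0.00302) and 129 (0.25, adjusted p 0.00516). Irf3, the factor that first switches on interferon beta, had 20.0 ± 0.828, 17.3 ± 0.481 and 22.6 ± 1.07 RPKM in F1, 129 and B6, and was lower in the F1 than in B6 (-0.17, limma adjusted p 0.0193), a call lost without F1 replicate 2 or 3 or B6 replicate 1 or 3 (adjusted p 0.0535 to 0.0834) or with median-of-ratios scaling (-0.12, adjusted p 0.0839). Jak1, a kinase bound to interferon receptors, had 46.8 ± 2.29 RPKM in F1 and 48.2 ± 2.86 RPKM in B6 and did not pass. Ifnb1 was at 0 in all 9 libraries.

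Of 20 tested genes of Toll-like receptor, TAK1 and NF-κB signalling, the route that Trim30a acts on, none rose and 1 fell by limma in the F1 against B6, where 1 was higher at an unadjusted p of 0.05 and with voom. The limma shares over all tested genes were 11.0% higher and 20.2% lower. Tab2, a target of Trim30a, had 23.4 ± 1.60 RPKM in F1, 21.5 ± 0.35 RPKM in 129 and 21.0 ± 1.37 RPKM in B6 (F1 minus B6 0.15, limma adjusted p 0.0682). Myd88, Irak1 and Nfkbia did not pass against B6 either. RNA levels do not measure the TAB2 protein. In the cytosolic sensing list, none of the 5 tested genes rose by limma (0 also unadjusted and by voom) and 1, Mavs, fell in the F1 against B6, at 30.5 ± 0.675 RPKM in F1 and 33.2 ± 1.01 RPKM in B6 (-0.12, limma adjusted p 0.0475). That call was lost when any library but B6 replicate 2 was left out (adjusted p 0.0536 to 0.146), with median-of-ratios scaling (-0.06, adjusted p 0.295) and with a replicate block (adjusted p 0.0527). Tbk1 and Casp1 did not pass in that comparison, and Tmem173, which encodes STING, did not either. In the F1 against 129, 3 of the 5 fell, among them Casp1 (-0.36, limma adjusted p 0.00164) and Tmem173 (-0.22, adjusted p 0.041). Over all tested genes, 15.7% fell in that comparison. The call of Tmem173 was lost without any 1 of the F1 libraries or 129 replicate 1 or 2 (adjusted p 0.065 to 0.144), and with no filter (0.136). With median-of-ratios scaling it was narrowly lost (-0.20, adjusted p 0.05 after rounding). In 129 against B6, 3 of these 5 rose and 1 fell, 4 rose and 1 fell among the interferon signalling genes, and 1 rose and 4 fell among the Toll-like list. The shares over all tested genes were 15.9% higher and 21.7% lower.

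Other TRIM genes were called in both directions. Of 58 other TRIM genes with a row, 29 were tested and 5 were at 0 in all 9 libraries. With all 9 libraries, 11.0% of all tested genes rose and 20.2% fell in the F1 against B6, and 12.0% and 15.7% in the F1 against 129. In 129 against B6 the shares were 15.9% and 21.7%. Of the 29, 1 rose and 5 fell in the F1 against B6, with a median of -0.06, and 1 rose and 3 fell without B6 replicate 1. In the F1 against 129, 1 of the 29 rose and 4 fell. In 129 against B6, 7 rose and 5 fell, with a median of 0.03. The most abundant were Trim35 (34.9 ± 1.51 RPKM in F1, 37.4 ± 1.21 in 129, 33.9 ± 0.909 in B6), Trim28, the corepressor of KRAB zinc finger proteins (22.1 ± 1.61, 24.6 ± 0.32, 22 ± 0.895), Trim44 and Trim41, and none of these 4 passed in the F1 against B6. Of the 29, 2 reached a B6 replicate 1 ratio of 1.4: Trim25, which activates the RNA sensor RIG-I, at 1.64, and Trim14 at 1.5. Both were picked out after the values were seen. Trim25 was lower in the F1 at 7.77 ± 0.597 RPKM, against 12.2 ± 3.72 RPKM in B6 (-0.55, limma adjusted p 0.0168). That call was lost without F1 replicate 3 (adjusted p 0.0597) and with no filter (adjusted p 0.103). Without B6 replicate 1 the B6 mean was 10.0 RPKM and the difference -0.33 (limma adjusted p 0.00554).

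The surroundings of the genes are mostly silent in these cells. From 500000 bases before Trim21 to 500000 bases after Trim30d there were 141 other genes, of which 109 were olfactory receptor genes, 112 were at 0 in all 9 libraries and 9 were tested. The tested neighbour nearest to the cluster was Trim6 (chr7:111367309-111383666, plus strand), whose human counterpart builds unanchored ubiquitin chains in interferon signalling. It had 0.955, 0.983 and 0.947 RPKM in F1, 1.60, 1.43 and 1.59 RPKM in 129 and 0.377, 0.341 and 0.301 RPKM in B6. The groups did not overlap, and the order was the reverse of that of Trim12a. Trim6 was higher in the F1 than in B6 (0.55, SE 0.06, limma adjusted p 0.000115) and lower than in 129 (-0.37, SE 0.06, adjusted p 0.00155), and it stood close to the mid-parent value (0.09, adjusted p 0.264). Its B6 replicate 1 ratio was 1.17, and its promoter window held no match to the response element core.

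Of the other tested neighbours, Rrm1, a subunit of ribonucleotide reductase on the far side of Trim21 from the cluster, had 16.8 ± 0.297 RPKM in F1, 14.2 ± 0.892 RPKM in 129 and 22 ± 0.732 RPKM in B6. It was lower in the F1 than in B6 (-0.37, limma adjusted p 0.000288) and higher than in 129 (0.23, adjusted p 0.00574). Pgap2 was lower in the F1 than in B6 (-0.17, adjusted p 0.0242) and higher than in 129 (0.22, adjusted p 0.00736), and the first of these calls was lost without F1 replicate 1 or 3 or B6 replicate 1 (adjusted p 0.0619 to 0.101), with median-of-ratios scaling (-0.11, adjusted p 0.0919) and with no filter (adjusted p 0.0543). Stim1, the calcium sensor of the endoplasmic reticulum, was lower in the F1 than in B6 (-0.20, limma adjusted p 0.0024). Rnf121, Xndc1, Nup98, Rhog and Olfr613 passed neither comparison of the F1 with a parent. Among untested TRIM rows, the pseudogene Trim30e-ps1 had 6 reads over F1, 0 over 129 and 7 over B6.

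The genes most like each member across the 9 libraries were found from the root mean square difference of centred log2(RPKM + 1) values among all tested genes, as a description. Trim12a and Trim30d were each other's nearest gene, at 0.12, and Col28a1 on chromosome 6 was the next for both, at 0.18 and 0.24. Trim30a was nearest to Slfn8 (0.14), Gbp3 (0.15) and Slfn2 (0.18). Trim34a was nearest to Gm6548 (0.09), Dhx58 (0.12) and Tor3a (0.13), Trim12c to Ifi204 (0.08), Ube2l6 (0.10) and Cfb (0.11), and Trim21 to Lgals9 (0.05), Ly6a (0.06) and Mov10 (0.07). The third for Trim12a was Gm13152 (0.28) and for Trim30d F830016B08Rik (0.28). Trim68 was nearest to Tbx3 (0.03), 2310003H01Rik (0.03) and 2010111I01Rik (0.04). Small differences are easier to reach for genes that vary little, so distances of different members are not comparable. All 9 libraries enter each distance, B6 replicate 1 included.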

How the data were processed

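The authors deposited RPKM values, with 1 value per gene and library, for poly(A) RNA libraries made with a stranded kit, per the labels' protocols. STAR and build mm9 are named in the submitters' processing notes; the counter, annotation and versions are not given here in any source used. The deposited columns with no name, 5 per file, were not used. RPKM times exon length kept steps of 1 read, from which 19130022 to 53410947 assigned reads per library were recovered; every row of every library came out whole within 0.1 read. These reads served only as read counts behind a value, for floors of 3 reads per group, exact 95% counting intervals and an added test with voom.

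Of 24013 symbols, the 11542 that reached an RPKM of 1 in 3 or more of the 9 libraries were tested with limma 3.58.1 under R 4.3.3 on log2(RPKM + 1), with 1 mean per group, a mean-variance trend, all 9 libraries in the fit, two-sided p-values and Benjamini-Hochberg adjustment over all genes tested at 0.05. The test was checked on simulated data with the same noise in every library. That check does not cover a deviating library such as B6 replicate 1. Errors of RPKM are standard deviations of 3 libraries and errors of log2 differences are limma standard errors. Alternatives were a pseudocount of 0.1, other filters, median-of-ratios scaling, voom on recovered reads, a replicate block, a linear mid-parent and leaving out each library.

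The members and gene lists were chosen with earlier results of these data known, so no p-value is given for members in 129 minus B6. Beside the members, the text names every tested neighbour within 500000 bases, up to 4 genes per pathway list by mean RPKM (cell type markers are given mostly as sums), and the 3 nearest genes per member. Exceptions are stated where they occur. A list gene that this rule names is not reported here. Promoter windows and starts came from RefSeq (GRCm38.p6). Shared words of 50 bases were counted in GENCODE transcripts.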

Additional observations from a re-analysis of the deposited data

How the results depend on the processing

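Over the 7 tested genes, 427 recomputed values were compared with those reported: 389 counted as kept, 13 lost a call, 12 gained one, 6 moved and 7 changed sign. With a p-value, kept means the same direction and side of the threshold. In 129 minus B6, it means the same direction and a shift under the larger of the parents' SDs on the log2 scale. Several settings, such as leaving out an F1 library, cannot change a 129 minus B6 difference, so the 389 do not measure how stable the calls are. The counts of called genes over all genes stayed within 1.5 times in every alternative. Sign changes fell on values near 0 or on the mid-parent scale. With the parents averaged after undoing the log of their mean log2(RPKM + 1), F1 minus mid-parent was -0.32 for Trim12a and -0.45 for Trim30d. Leaving out 1 library each, Trim12c in 129 minus B6 ran from -0.03 to 0.34, Trim30d against the mid-parent from -0.00 to 0.23, Trim68 in F1 minus B6 from -0.02 to 0.05 and Trim68 against the mid-parent from -0.06 to 0.01; the last was also 0.01 with median-of-ratios scaling. In 129 minus B6, a pseudocount of 0.1 gave -5.50 for Trim12a, -5.69 for Trim30d and -1.32 for Trim34a, and voom gave -7.84, -9.93 and -1.42, where reads near 0 fix the size. With no filter, over all symbols, the F1 minus B6 calls of Trim30a (limma adjusted p 0.116), Trim34a (0.136) and Trim21 (0.0596) were lost. More genes are then tested, and the mean-variance trend is fitted over the low genes too. How much each of these changes adds was not tested. Same-numbered libraries of different groups had deviations that correlated between -0.192 and 0.215, and not every library correlated best with its own number, so the numbers were not taken as pairs. With a replicate block, F1 minus B6 had 3546 called genes, against 3599 without it, and Trim30d stayed at -1.23 (limma adjusted p 0.0013). At the lowest depth of 19130022 reads, levels of Trim30b could not be compared.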

Other observations

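Markers of other cell types moved with the groups in some lists, and their part in the TRIM values was not tested. The smooth muscle markers Tagln, Acta2, Myh11 and Cnn1, all 4 tested, were lower in the F1 than in B6, with summed levels of 98.2 to 104 RPKM in F1, 127 to 135 in 129 and 124 to 139 in B6. Over all tested genes, 20.2% were called lower in that comparison. The mesothelial list, carried by Krt19, summed to 15.1 to 17.7 RPKM in F1, 14.9 to 17.4 in 129 and 7.82 to 8.95 in B6. Endothelial markers summed to 3.04 to 3.21 RPKM in F1, 1.66 to 2.51 in 129 and 3.56 to 4.49 in B6. Dendritic markers summed to 14.5 to 35.8 RPKM in F1, 22.5 to 23.0 in 129 and 19.6 to 87.8 in B6, nearly all of it from Bst2, which is also on the interferon-stimulated list. Macrophage markers did not rise with the interferon-stimulated genes in B6 replicate 1, where their median ratio to replicates 2 and 3 was 0.861.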
